A study of Mus musculus with 6 samples.

Results

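The nuclear-encoded subunits of cytochrome c oxidase were followed in double-positive thymocytes with and without the heme exporter gene Flvcr1, with the tissue-restricted subunit Cox6a2 set against its ubiquitous counterpart Cox6a1 and the other subunits. The members were 10 genes, taken by the symbol of their probes in the platform annotation. Of these, 9 had a probe under that symbol, 13 probes in all out of 45281 on the array, and Cox7c had none and was not analysed here. The set was assembled because the Cox6a2 probe had already stood out between these same groups, so its difference is given below as a description and no test is attached to it.

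Each of 6 Illumina bead arrays held biotin-labelled cRNA made from total RNA of CD4+CD8+ thymocytes sorted from thymuses of C57BL/6-background mice. The mice with the deletion were labelled Flvcr-/- (3 arrays, called Flvcr-deleted here) and their controls Flvcr+/+ (3 arrays, called control). The labels do not say how or in which cells the gene was deleted, how old the mice were or whether each sample was a different animal, so p-values measure only the spread between these samples, which may be technical. Values are background-corrected, quantile-normalized intensities on the log2 scale unless stated otherwise, and differences are Flvcr-deleted minus control in log2 units.

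Cytochrome c oxidase, complex IV of the respiratory chain, passes electrons from cytochrome c to oxygen. Its catalytic core is made by the mitochondrial genome and carries heme a and copper, while the smaller surrounding subunits come from nuclear genes. Several nuclear subunits exist in a ubiquitous form and a form found mainly in heart and skeletal muscle. Cox6a1 and Cox6a2 are such a pair, as are Cox7a2 and Cox7a1, and thymocytes are not among the tissues for which the muscle forms are best known.

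Upstream sequence is a feature that the choice of members did not use. NRF-1 and the ETS factor GABP are known regulators of nuclear respiratory genes. RefSeq promoter windows of GRCm38.p6 were at hand for 7 of the 10 genes (Cox5a, Cox5b, Cox6a1, Cox6b1, Cox7a2, Cox7b and Cox7c). The 250 bases before the annotated start were searched on both strands for GCGCATG (NRF-1), CCGGAAG (ETS) and GGGCGG (the GC box bound by Sp1). Shown are Cox6a1, the counterpart of Cox6a2, then Cox5b and Cox6b1, the other windows with an NRF-1 or ETS match, and Cox7b, whose probe was the other to separate the groups. Capitals mark the NRF-1 and ETS matches, and each sequence reads 5′ to 3′ on the strand of its gene.
Cox6a1: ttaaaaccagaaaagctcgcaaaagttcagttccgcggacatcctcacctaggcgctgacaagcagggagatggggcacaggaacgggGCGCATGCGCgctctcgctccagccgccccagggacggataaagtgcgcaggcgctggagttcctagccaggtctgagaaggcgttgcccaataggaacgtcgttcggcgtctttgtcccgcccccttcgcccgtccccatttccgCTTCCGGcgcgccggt
Cox5b: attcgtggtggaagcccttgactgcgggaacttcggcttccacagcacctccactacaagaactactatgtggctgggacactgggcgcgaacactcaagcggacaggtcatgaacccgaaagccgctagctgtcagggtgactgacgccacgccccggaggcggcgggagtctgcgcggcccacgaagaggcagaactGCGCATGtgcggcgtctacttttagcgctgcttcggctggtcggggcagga
Cox6b1: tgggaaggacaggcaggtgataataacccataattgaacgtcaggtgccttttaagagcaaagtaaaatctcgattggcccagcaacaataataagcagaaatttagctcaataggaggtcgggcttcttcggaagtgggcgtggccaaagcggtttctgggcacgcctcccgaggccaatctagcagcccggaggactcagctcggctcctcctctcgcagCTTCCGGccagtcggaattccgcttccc
Cox7b: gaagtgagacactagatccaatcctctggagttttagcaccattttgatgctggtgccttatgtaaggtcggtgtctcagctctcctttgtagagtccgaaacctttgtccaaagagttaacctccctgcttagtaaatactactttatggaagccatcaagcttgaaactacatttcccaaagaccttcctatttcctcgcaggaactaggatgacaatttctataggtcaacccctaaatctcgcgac
The Cox6a1 window lies on the minus strand at chr5:115348959-115349208 and the Cox5b window on the plus strand at chr1:36691237-36691486. That of Cox6b1 lies on the minus strand at chr7:30626115-30626364 and that of Cox7b on the plus strand at chrX:106015450-106015699. NRF-1 letters stood in 2 of the 7 windows, Cox6a1 and Cox5b, and in 3.24% of all 32851 windows of the table. In Cox6a1 a match on each strand overlaps the other, which makes the longer run of capitals. ETS letters stood in 2 of 7, Cox6a1 and Cox6b1, against 6.91% of all windows. The GC box was present in 3 of 7, Cox6a1, Cox5a and Cox7a2, against 32.7% of all windows. These are matches of letters only, and no match overlaps that of another motif. G and C made up 62.8% of the Cox6a1 window, 62.4% of that of Cox5b, 54.0% of that of Cox6b1 and 43.6% of that of Cox7b.

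Between 15307 and 15792 of the probes were detected per array, and pairs of arrays correlated at 0.977 to 0.986 inside a group and at 0.978 to 0.984 across groups. Probes detected on at least 3 arrays (detection p under 0.05) entered the fit, 15448 in all. The median difference of all these probes was 0.00. Flvcr1 itself, the deleted gene, read 9.92, 10.45 and 10.13 on Flvcr-deleted arrays 1, 2 and 3, against 11.01, 11.28 and 10.93 on control arrays 1, 2 and 3, so the groups did not overlap. No source used here says whether its probe lies inside the deleted part. Of 10 double-positive thymocyte markers with a probe, 9 were measured, with a median difference of -0.05 and 0 past an adjusted p of 0.05. The coreceptor gene Cd8b1 averaged 14.83 ± 0.16 in Flvcr-deleted and 14.88 ± 0.02 in control cells (SD, n = 3 each), and the recombinase gene Rag1 13.67 ± 0.19 and 13.80 ± 0.09 in the same order. The signalling chain gene Cd3e, also bright, had a difference of -0.13. Cd8a, a defining marker of the sorted cells, was not detected on any array, while Cd8b1 was.

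Cox6a2 was the subunit with the largest difference. Its single probe (ILMN_2629581) read 7.95, 8.86 and 8.93 on Flvcr-deleted arrays 1, 2 and 3, against 6.89, 7.14 and 7.16 on control arrays 1, 2 and 3. The groups did not overlap. Flvcr-deleted replicate 1 was the lowest of its group and stood closest to the controls. As deposited, before any correction, the same probe had intensities of 347.4, 549.9 and 642.9 in Flvcr-deleted samples, against 240.0, 275.9 and 231.6 in controls, and its detection p was 0 on all 6 arrays. Cox6a2 is therefore a transcript above background in both groups, and its difference does not rest on a group without signal. The group means were 8.58 ± 0.55 in Flvcr-deleted and 7.06 ± 0.15 in control cells (SD, n = 3 each), a difference of 1.51 (SE 0.247), or 2.86-fold. The ratio of the mean deposited intensities was 2.06. Its difference was the highest of all 15448 probes, which is the value it was chosen by.

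Over all probes tested, 26 of 15448 passed an adjusted p of 0.05 in limma's moderated test (0.168%), 2 of them higher (0.0129%). The count fell to 9 without Flvcr-deleted replicate 2, 9 without Flvcr-deleted replicate 3, 7 without control replicate 1, 6 without control replicate 2 and 14 without control replicate 3. The Cox6a2 difference was 1.02 without background correction and with the deposited log2 values. With 1 array left out it ran from 1.34 without Flvcr-deleted replicate 3 to 1.83 without Flvcr-deleted replicate 1.

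**Figure D1:**
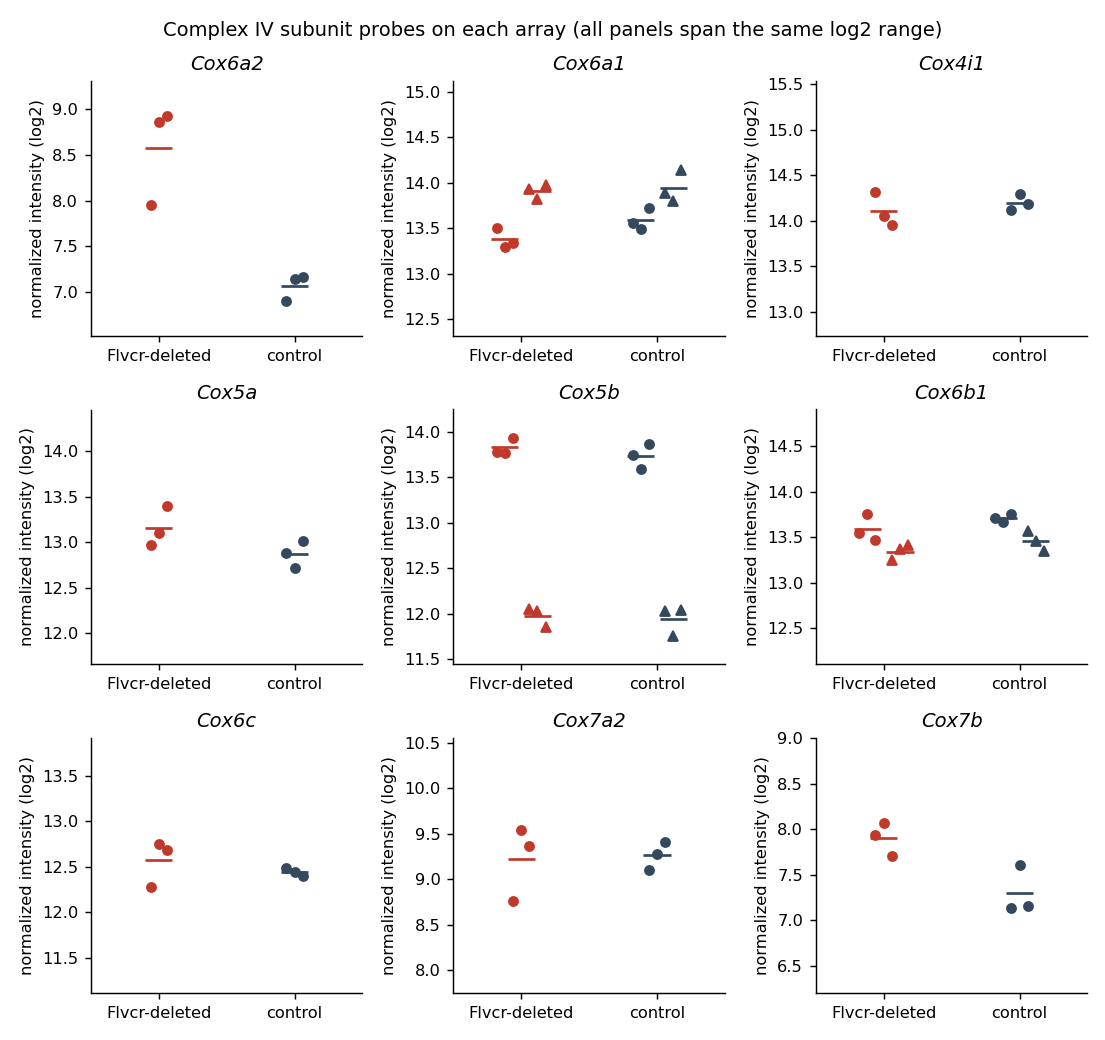
Normalized intensity (log2) of every detected complex IV subunit probe on each array, with Flvcr-deleted samples left (red) and control samples right (dark). Points are arrays 1 to 3 of a group from left to right, bars are group means, circles and triangles are different probes of a gene, and every panel spans the same log2 range. Only in the Cox6a2 and Cox7b panels do the groups not overlap.

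For Cox6a1, the ubiquitous counterpart, both probes had a mean below that of controls. Its probe ILMN_2605400 read 13.50, 13.29 and 13.34 on Flvcr-deleted arrays, against 13.56, 13.49 and 13.73 on control arrays, a difference of -0.21 (SE 0.0999). The groups overlapped through Flvcr-deleted replicate 1 and control replicate 2. The other probe, ILMN_2638875, read 13.93, 13.82 and 13.97 in Flvcr-deleted samples, against 13.89, 13.79 and 14.14 in controls. Its difference was -0.03 (SE 0.102), with a 95% interval of -0.25 to 0.18. Both probes were bright. The difference of ILMN_2638875 turned positive under 3 alternatives, at 0.064 without control replicate 3, 0.023 with array weights and 0.010 when Flvcr-deleted replicate 2 was left out. Within arrays, the Cox6a2 signal changed by 1.64 more than the mean of the Cox6a1 probes (SD 0.61 among Flvcr-deleted and 0.17 among control arrays). Most of this value is the Cox6a2 difference itself, the value it was chosen by, and it is no ratio of the amounts of the pair, since levels of different probes are not comparable.

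Cox7b, a small structural subunit of the complex encoded on the X chromosome, was the other member whose groups did not overlap. It read 7.93, 8.06 and 7.70 on Flvcr-deleted arrays 1, 2 and 3, against 7.14, 7.60 and 7.15 on control arrays. The lowest Flvcr-deleted array, replicate 3, lay just above the highest control array, replicate 2. The difference was 0.60 (SE 0.208, 95% interval 0.16 to 1.05), or 1.52-fold, and it did not pass (limma adjusted p = 0.999). Without background correction it was 0.38, and over all settings it ran from 0.38 to 0.75. Of the 12 detected member probes 2 had groups that did not overlap, Cox6a2 and Cox7b, where 1427 of all 15448 probes did (9.24%). Nothing is read from these counts, because the members were chosen from this contrast.

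Among subunits next to the catalytic core, Cox4i1 read close to its controls and Cox5a somewhat higher, without passing. Cox4i1, the subunit that binds ATP as a brake on the enzyme, read 14.32, 14.05 and 13.95 on Flvcr-deleted arrays, against 14.12, 14.29 and 14.18 on control arrays, a difference of -0.09 (SE 0.102) with overlapping groups. Cox5a, which packs against Cox4i1 on the matrix side, read 12.97, 13.09 and 13.39 in Flvcr-deleted samples, against 12.88, 12.72 and 13.01 in controls. Its difference was 0.28 (SE 0.121, 95% interval 0.02 to 0.54) and did not pass (limma adjusted p = 1.00). Only Flvcr-deleted replicate 1 lay below the highest control array. Without Flvcr-deleted replicate 3, the brightest array for Cox5a, the difference was 0.16.

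Cox5b, a zinc-binding subunit on the matrix side, was measured by more probes than any other member, and they did not all detect it. ILMN_1241962 averaged 13.83 ± 0.09 in Flvcr-deleted and 13.74 ± 0.13 in control cells (SD, n = 3 each), a difference of 0.09 (SE 0.0972). ILMN_2772319 averaged 11.98 ± 0.11 and 11.94 ± 0.16 in the same order, a difference of 0.04 (SE 0.119). The remaining probe, ILMN_1227230, was not detected on any array of either group (detection p from 0.652 to 0.965) and was not tested. Both bright probes thus lay slightly above 0, by less than 1 SE.

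Cox6b1 sits on the intermembrane face near the site where cytochrome c docks. Probe ILMN_1254971 read 13.54, 13.76 and 13.48 in Flvcr-deleted samples, against 13.71, 13.67 and 13.76 in controls, a difference of -0.12 (SE 0.0973). Probe ILMN_2616405 read 13.25, 13.37 and 13.41, against 13.57, 13.46 and 13.35 in controls, also -0.12 (SE 0.0978). Groups overlapped on both probes. Cox6c, another small structural subunit, read 12.28, 12.76 and 12.69 on Flvcr-deleted arrays, against 12.49, 12.44 and 12.40 on control arrays, a difference of 0.13 (SE 0.125). Here Flvcr-deleted replicate 1 lay below every control array and the other Flvcr-deleted arrays above every control array. Leaving out Flvcr-deleted replicate 1 gave a Cox6c difference of 0.28, and leaving out Flvcr-deleted replicate 2 gave 0.037.

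Cox7a2, the ubiquitous form of subunit 7a, read 8.76, 9.54 and 9.36 on Flvcr-deleted arrays, against 9.10, 9.28 and 9.41 on control arrays. Its difference was -0.04 (SE 0.197, 95% interval -0.46 to 0.38). Flvcr-deleted replicate 1 was again the lowest array. Leaving it out turned the difference to 0.19, and leaving out Flvcr-deleted replicate 2 gave -0.20.

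Over the 11 detected probes of the 8 subunits other than Cox6a2, 5 differences were above 0 and 6 below, from -0.21 (Cox6a1) to 0.60 (Cox7b), with a median of -0.03 against 0.00 for all probes tested. None passed an adjusted p of 0.05 by limma, where 3 had an unadjusted p under 0.05 (686 of all 15448 probes did, 4.44%). The 95% interval of the difference held 0 for 8 of the 11, lay above 0 for 2 (Cox7b and Cox5a) and below 0 for 1 (Cox6a1, probe ILMN_2605400). These intervals are not adjusted for the number of probes. All but that of Cox7b lay within 1 log2 unit of 0 on either side, which leaves room for changes smaller than a doubling. Over the 17 settings 8 of 187 differences changed sign, on 3 probes (Cox6a1 ILMN_2638875, Cox5b ILMN_2772319 and that of Cox7a2). Many of the 187 could not change. The detection filters, the variance trend, the replicate block and the Xist covariate leave these estimates as they are by construction. The deposited values also repeat those without background correction.

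**Figure D2:**
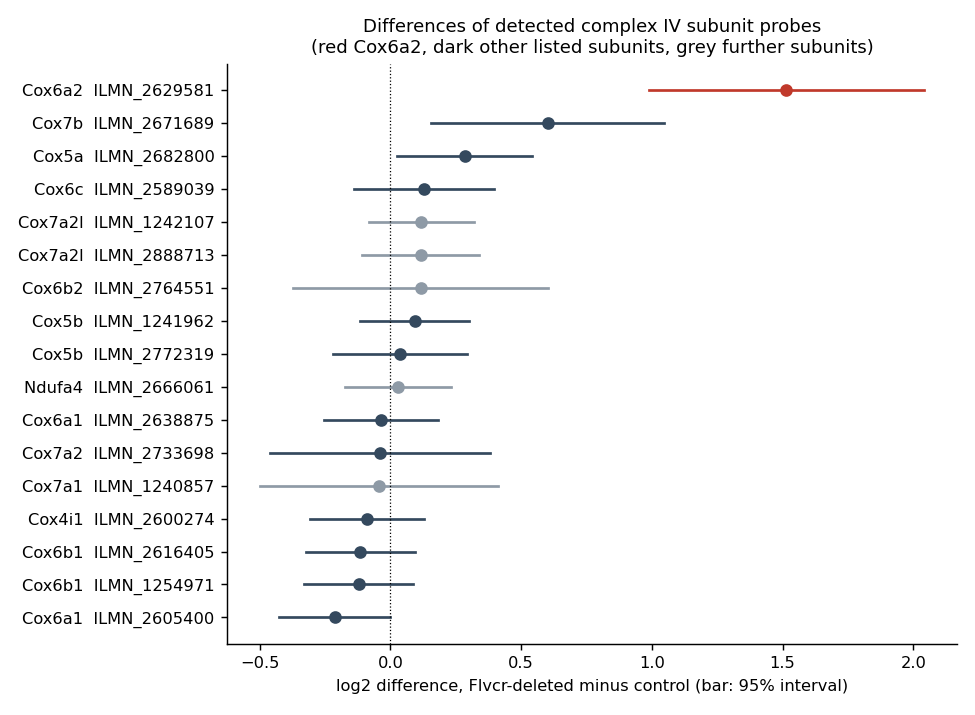
Log2 difference (Flvcr-deleted minus control) of each detected probe of the listed subunits and of further nuclear subunits, with bars for the 95% interval of limma. Cox6a2 lies at 1.51 and the other listed probes between -0.21 and 0.60.

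The muscle forms of other subunits were either near the control level or not detected. Cox7a1, the muscle form of subunit 7a, was detected on all arrays and read 7.68, 7.46 and 8.15 in Flvcr-deleted samples, against 7.65, 7.88 and 7.90 in controls, a difference of -0.04 (SE 0.212, 95% interval -0.50 to 0.41). The probe of Cox8b, the muscle form of subunit 8, was not detected on any array. Of 9 further nuclear subunits 8 had a probe and 4 were measured. Besides Cox8b, those not detected were the lung form Cox4i2 and the testis forms Cox7b2 and Cox8c. The measured genes had a median difference of 0.07, and 0 of 4 passed (13 of all 8808 genes, 0.148%). Cox7a2l, which helps join complex IV to complex III, stood at 0.12 (SE 0.105), and its other probe, at 0.12 (SE 0.0943), had groups that did not overlap. Cox6b2, the testis form of subunit 6b, stood at 0.12 (SE 0.229), while its other probe was not detected on any array.

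Other genes of striated muscle were mostly not detected. Of 24 muscle genes with a probe, 15 were not detected on any array, among them those for muscle creatine kinase (Ckm), myoglobin (Mb) and the actins Acta1 and Actc1, and 3 were measured. Their median difference was 0.11, but -0.11 without Flvcr-deleted replicate 3, and 0 passed. With no filter on detection the median was -0.05, but over all 24 genes, most of them not detected on any array. Mylpf, a fast myosin light chain, read 10.04 ± 0.18 in Flvcr-deleted and 9.93 ± 0.15 in control cells (SD, n = 3 each). Eno3, the muscle enolase, stood at 0.18 (SE 0.283). The summed deposited intensity of the 3 measured genes ran from 1421 to 2058 on Flvcr-deleted and from 1554 to 1656 on control arrays. The groups thus overlapped. This sum is neither background-corrected nor scaled between arrays (array medians 126.1 to 149.1).

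The steps that supply complex IV with its cofactors were measured through fewer genes. Heme a is made from heme by Cox10, which adds the farnesyl tail, and Cox15, which oxidizes it. Cox15 read 8.95, 9.39 and 9.16 on Flvcr-deleted arrays, against 8.81, 8.52 and 9.05 on control arrays, a difference of 0.37 (SE 0.184, 95% interval -0.02 to 0.77). Only Flvcr-deleted replicate 1 lay below a control array. Cox10 stood at 0.02 (SE 0.148). Of 4 genes listed for this step 2 were measured, and 0 passed (limma adjusted p = 1.00 for both).

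Assembly and copper delivery factors had a median difference of 0.04, which was -0.02 without control replicate 2 and 0.07 without Flvcr-deleted replicate 1 or 2. Of 25 listed, 21 had a probe and 19 were measured, 11 above 0 and 8 below, and 0 passed. Taco1, a translational activator of the mitochondrially encoded subunit 1, had the smallest p of the list. It read 6.24, 6.23 and 6.23 on Flvcr-deleted arrays, against 5.36, 6.10 and 5.21 on control arrays, a difference of 0.68 (SE 0.282, limma adjusted p = 1.00). It was detected on 3 Flvcr-deleted arrays but on 1 control array. Coa3, which stabilizes newly made subunit 1, read 11.98 ± 0.14 in Flvcr-deleted and 12.27 ± 0.20 in control cells (SD, n = 3 each), a difference of -0.29 (SE 0.126, adjusted p = 1.00 by limma). Groups did not overlap for 4 of the 19, where 845 of all 8808 genes did not (9.59%). Cytochrome c itself (Cycs) stood at 0.00 (SE 0.124), and Hccs, which attaches its heme, at -0.08 (SE 0.178).

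Regulators of nuclear respiratory genes had a median difference of -0.01, with 5 of 10 measured members above 0 and 5 below, and 0 passed. Gabpa, the DNA-binding subunit of GABP, read 7.57, 7.51 and 7.47 on Flvcr-deleted arrays, against 7.94, 8.46 and 8.19 on control arrays. The groups did not overlap, and the difference was -0.69 (SE 0.194), 1.61-fold lower, which did not pass (limma adjusted p = 0.601). Esrra, an orphan receptor that acts on oxidative genes, stood at 0.19 (SE 0.145) with groups that did not overlap. In this list 3 of the 10 measured genes had groups that did not overlap, where 845 of all 8808 genes did not (9.59%). Ppargc1a, the coactivator of muscle and other oxidative tissues, was not detected on any array.

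**Figure D3:**
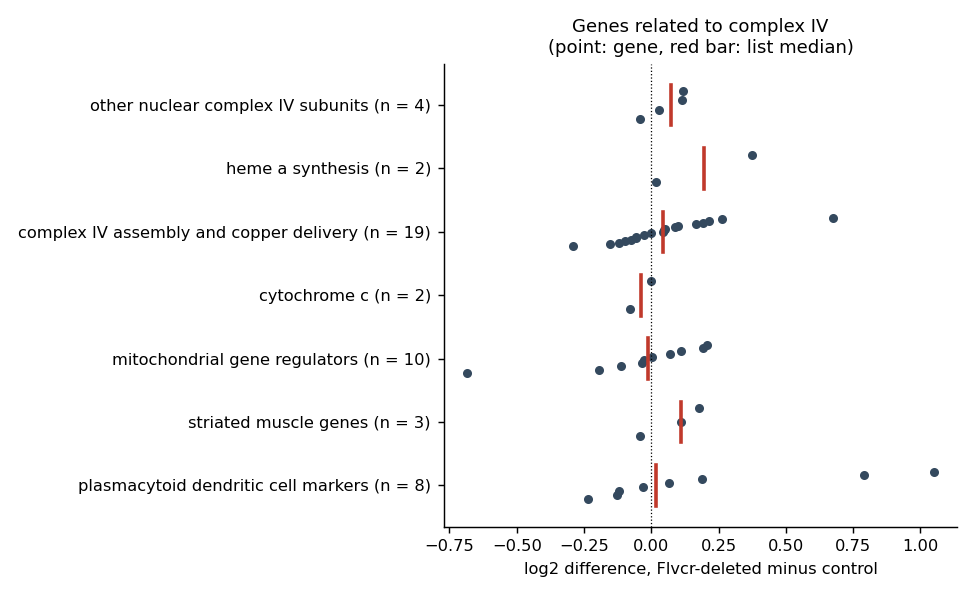
Log2 difference (Flvcr-deleted minus control) of each measured gene in 7 lists, namely further subunits, heme a synthesis, assembly and copper delivery, cytochrome c, regulators, striated muscle genes and plasmacytoid dendritic cell markers, with a red bar at each list's median. In these lists the medians lie between -0.04 and 0.20, and the genes farthest from 0 are the plasmacytoid markers Plac8 and Irf8, Gabpa (below 0) and Taco1.

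Genes that flank Cox6a2 on chromosome 7 were mostly below detection. Of the 10 protein-coding genes nearest to it in the RefSeq table of GRCm38.p6, 5 on each side, 2 were measured. Pycard, an inflammasome adaptor, stood at -0.10 (SE 0.16) and Rusf1 at -0.18 (SE 0.23), with overlapping groups and 0 of 2 past an adjusted p of 0.05. The adjacent integrin genes Itgad, Itgax and Itgam, which mark myeloid and dendritic cells, were not measured, nor were Trim72, 9130023H24Rik, Armc5, Tgfb1i1 and Slc5a2.

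Cox6a2 is also known as a transcript of plasmacytoid dendritic cells, so markers of that cell and of others the sort could hold were set beside it. Of 13 plasmacytoid markers with a probe 8 were measured, 4 above 0 and 4 below, with a median of 0.02, and 0 passed. Their summed deposited intensity, again unscaled, ran from 3301 to 3759 on Flvcr-deleted arrays and from 2885 to 3794 on control arrays. Tcf4 alone gave 1192.3 to 1711.1 of it on Flvcr-deleted and 1133.3 to 1587.2 on control arrays. The mean normalized log2 values of the list were 7.29, 7.61 and 7.15, against 7.17, 7.19 and 7.09 on control arrays, so the groups overlapped. Siglech, a defining receptor of these cells, read 5.23, 7.005 and 5.98 in Flvcr-deleted samples, against 6.38, 6.66 and 5.52 in controls, with overlapping groups. Klk1, Ccr9, Tlr9 and Cd209d were not detected on any array. Tcf4, a regulator of these cells, stood at 0.07 and the surface protein gene Bst2 at -0.24.

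Plac8, which is also expressed in other leukocytes, was the marker on this list nearest to the pattern. It read 7.89, 8.65 and 8.41 on Flvcr-deleted arrays, against 7.19, 6.72 and 7.88 on control arrays. The groups only just failed to overlap, and the difference of 1.05 (SE 0.277) did not pass (limma adjusted p = 0.412) except with array weights. Irf8, a regulator of dendritic cells, stood at 0.79 (SE 0.323) and was detected on 3 Flvcr-deleted arrays and 1 control array. The part of such cells in the Cox6a2 value was not tested.

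Conventional dendritic cell and macrophage markers had a median of -0.13 over 5 measured of 13, with summed deposited intensities, again unscaled, of 980.7 to 1059 on Flvcr-deleted and 1111 to 1192 on control arrays. These sums did not overlap, but the mean normalized log2 values of the list did, at 5.91 to 6.29 on Flvcr-deleted and 6.22 to 6.69 on control arrays. Cd74, the class II invariant chain, was at -1.13 (SE 0.315, limma adjusted p = 0.559), H2-Eb1 at -0.66 and H2-Ab1 at -0.10, and 4 of the 5 measured genes were below 0 and 1 above. Itgax, Itgam, Clec9a, Adgre1 and Cd68 were not detected on any array. Of the B lineage list 3 of 7 genes with a probe were measured and 1 passed, the kappa light chain gene Igkc, lower at -3.36 (SE 0.202, limma adjusted p = 5.09e-07). Ighm and Cd79b stood at -0.05 and 0.26, and Ms4a1, Pax5 and Jchain were not detected on any array. The summed deposited intensity of this list, again unscaled, was 10882 to 11302 in Flvcr-deleted and 12012 to 16562 in control samples. Igkc is part of this sum, at 361.9 to 523.7 in Flvcr-deleted and 2786.7 to 4970.1 in control samples. For Ighm and Cd79b the groups overlapped. In bulk RNA, fewer cells of a type and less RNA per cell cannot be told apart.

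Array differences that cut across the genotype were set beside the Cox6a2 values. Xist, expressed from the inactive X chromosome, read 4.72, 9.99 and 9.81 on Flvcr-deleted arrays 1, 2 and 3, against 9.55, 9.49 and 4.72 on control arrays 1, 2 and 3. Each group therefore held 1 array with low Xist. Among arrays with high Xist, Cox6a2 averaged 8.89 in 2 Flvcr-deleted and 7.02 in 2 control samples, a difference of 1.88. Between the arrays with low Xist it was 7.95 in the Flvcr-deleted and 7.16 in the control sample, a difference of 0.79. This split was chosen after the data were seen. The Cox6a2 groups do not overlap, so any split gives a difference above 0, and nothing is read from its sign.

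The mean of the 3 measured erythroid genes varied widely between arrays, at 7.07, 9.89 and 10.002 on Flvcr-deleted arrays, against 9.95, 8.45 and 8.89 on control arrays. The globin genes Hbb-b1 and Hba-a1 stood at -0.11 (SE 0.848) and 0.03 (SE 0.846), and the erythroid regulator gene Klf1 at -0.24. Epb42 was not detected on any array, and the summed deposited intensity ran from 814.4 to 12294 in Flvcr-deleted and from 2642 to 8989 in control samples. Flvcr-deleted replicate 1 was thus the lowest array for the erythroid mean and low for Xist. It was the lowest array for each globin gene but the highest of its group for Klf1. Among subunit probes it was the lowest of its group for Cox6a2, Cox5a, Cox6c, Cox7a2 and Cox6b1 ILMN_2616405. It was the highest of its group for Cox4i1, Cox6a1 ILMN_2605400 and Cox5b ILMN_2772319. What part these array differences have in the Cox6a2 value was not tested. With the erythroid mean as a covariate, chosen after the data were seen, the Cox6a2 difference was 1.54 (SE 0.217). This value does not measure that part.

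**Figure D4:**
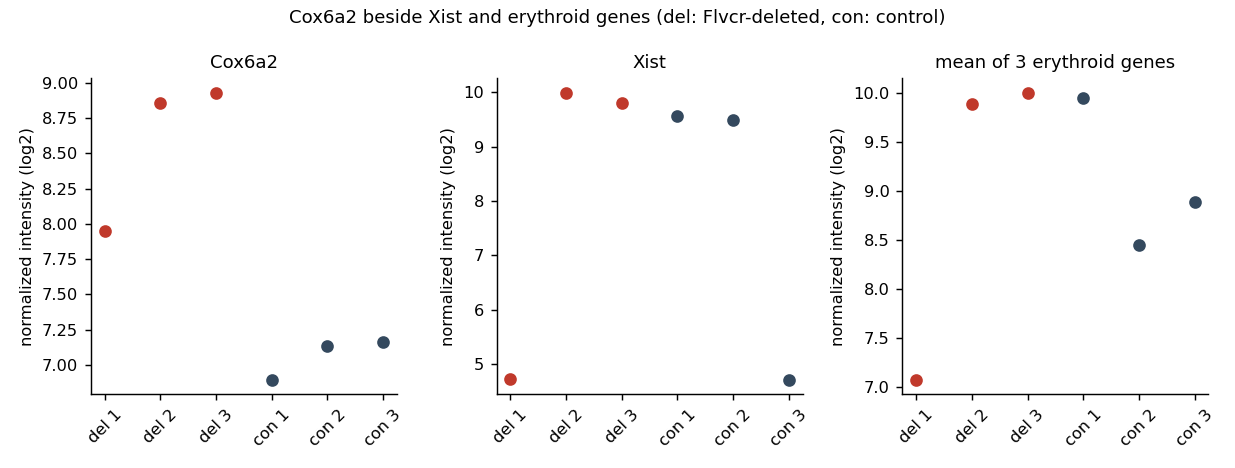
Normalized intensity (log2) of Cox6a2, of Xist and of the mean of 3 erythroid genes on each array, Flvcr-deleted (red) left of control (dark). Flvcr-deleted replicate 1 is low in all 3 panels relative to its group, and all Flvcr-deleted arrays lie above all control arrays only in the Cox6a2 panel.

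Each subunit entered the correlations through its brightest detected probe. Among these probes, the array pattern of Cox6a2 was most like that of Cox5a (Pearson r = 0.81 over the 6 arrays) and Cox7b (0.77). The pattern was least like that of Cox4i1 (-0.61), with -0.14 for Cox6a1 probe ILMN_2638875. The other Cox6a1 probe, ILMN_2605400, with a difference of -0.21 against -0.03, was left out. The order therefore holds for the probes used and may change with others. Over all measured genes the 5 closest patterns were those of Nars (0.98), Myadml2 (0.98), Zswim3 (0.98), Pofut1 (0.97) and Asb3 (0.97). Myadml2 was detected on 3 Flvcr-deleted but on 0 control arrays, so its control values lie near background. All 5 had groups that did not overlap, where 845 of all 8808 genes did not (9.59%). They were picked by likeness to Cox6a2, whose groups do not overlap, so nothing is read from this count. With 6 arrays in 2 groups these correlations carry the difference between the groups within them and describe these arrays only.

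**Figure D5:**
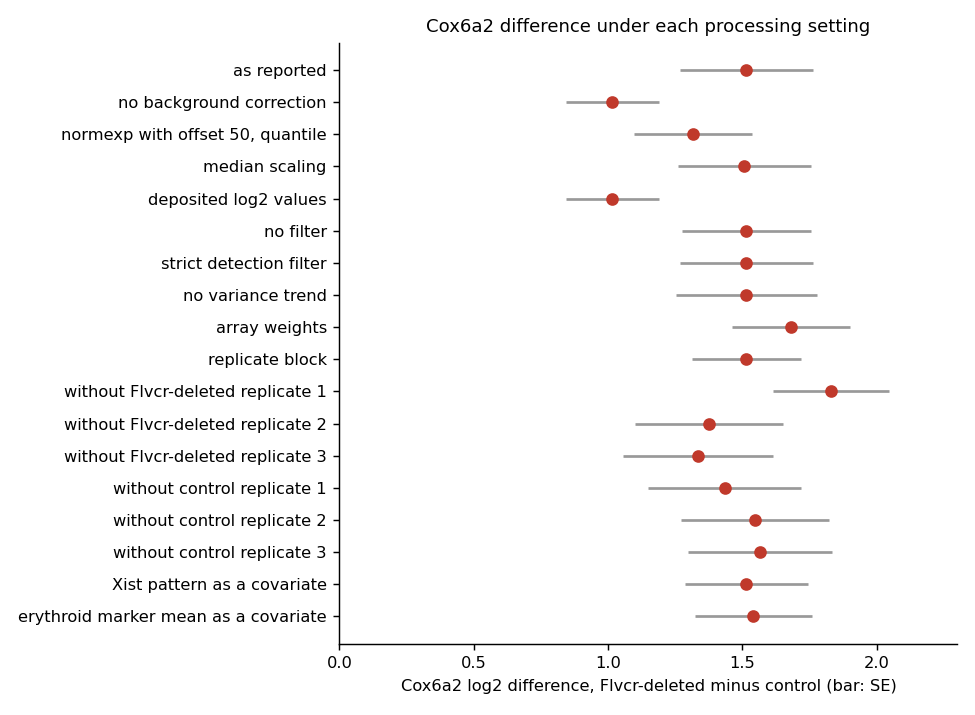
Cox6a2 log2 difference (Flvcr-deleted minus control) with its SE under the reported processing and each alternative. Values run from 1.02 without background correction to 1.83 without Flvcr-deleted replicate 1. Cox6a2 was chosen by this difference, so nothing is read from its sign.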

How the data were processed

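Total RNA of 6 sorted thymocyte samples was measured on Illumina bead arrays, 1 array per sample, and the titles gave the group and replicate number of each. Probe intensities on a linear scale, not scaled between arrays, were deposited with detection p-values, per the file headers. The deposited log2 values, attributed to lumi by the submitters' processing notes, with no version, equalled the log2 of quantile-normalized intensities to within 5e-09, with no background correction and with array medians of 7.09. Probe names came from the platform annotation, updated through RefSeq symbols of GRCm38.p6, and 9497 of 45281 probes had no name. No source used here gives the genome build of the probes.

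Background correction and quantile normalization used the neqc function (limma 3.58.1, R 4.3.3; offset 16, negative controls inferred from detection p-values). A probe was kept where 3 or more arrays detected it (p under 0.05). Groups were compared by lmFit and eBayes (variance trend, 2-sided) with Benjamini-Hochberg adjustment over all kept probes. On this scale changes of dim probes are understated. For lists and neighbours a gene was its kept probe with the highest mean. Members, lists and tests were chosen with earlier results of these data known. Named were all member probes, the 5 genes on either side of Cox6a2, the 5 genes most correlated with it, and, of each list, members that passed, the 2 with the smallest p and, for cell type markers, the 2 most abundant. Further genes named, namely Cox7a1, Siglech, Flvcr1, Xist and those given as not detected, were chosen after their values were seen. Probes for the mitochondrially encoded subunits were not found under their symbols and are not analysed here.

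Alternatives changed the background correction, normalization, probe filter, variance model, array weights, a replicate block and each array in turn, and the deposited values were used as well. Xist and erythroid covariates were chosen after seeing the data. Scripts were tested on simulated arrays. With 3 arrays a group, the number of arrays limits precision.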

Additional observations from a re-analysis of the deposited data

How the results depend on the processing

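The Cox6a2 difference of 1.51 was 1.02 without background correction and with the deposited log2 values, 1.32 with normexp at offset 50, 1.51 with median scaling, 1.68 with array weights and 1.54 with the erythroid covariate. Leaving out 1 array gave 1.34 to 1.83. The detection filters, the variance trend, the replicate block and the Xist covariate, which is balanced between the groups, leave this estimate as it is by construction and alter only its error. Calls over all probes were 26 as reported, 6 without the variance trend, 51 with array weights and 6 to 24 with 1 array left out. None of the 11 other subunit probes passed under any of the 17 alternatives, and their median difference ran from -0.057 to 0.064 with 1 array left out, against -0.035 as reported, the highest without control replicate 3. Among genes of the lists 1 passed (Igkc), and 2 with array weights (Igkc and Plac8). Medians of most lists lay near 0 and changed sign when some arrays were left out. Regulators ran from -0.09 to 0.06 and plasmacytoid markers from -0.02 to 0.11 with 1 array left out. The causes of these shifts were not tested. The labels do not say whether same-numbered arrays were paired. Their deviations from the group means correlated at -0.15, 0.09 and 0.11 for replicates 1, 2 and 3. Flvcr-deleted replicates 2 and 3 correlated best with their own number and replicate 1 did not, so a pairing cannot be told from these values. With the replicate block the Cox6a2 difference was 1.51 (SE 0.204) and 25 probes were called, with 0 of the other subunit probes among them. Bead arrays limit what can be said of dim probes, since 1 of 13 member probes was not above background on any array and Cox7c was not measured.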
